A study of Mus musculus with 6 samples.

Results

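The 8 genes of the TNF receptor family that act in B cell survival, costimulation and death described here in splenic B cells were *Tnfrsf13b* (TACI), *Tnfrsf13c* (the BAFF receptor), *Tnfrsf17* (BCMA), *Cd40*, *Cd27*, *Fas*, *Tnfrsf1a* and *Tnfrsf1b*. They were chosen by name, with earlier results of these data known, and all 8 were found among the 54446 genes of the normalized count table. The mice were *Tent5c* KO animals and their WT littermates on a mixed C57BL/6J and CBA background, aged 12 to 15 weeks, of both sexes and born to heterozygous parents. Naive B cells were taken from the spleen by negative selection, and the cells of both genotypes were then cultured for 7 days with IL-4 at 20 ng/ml and LPS at 20 µg/ml. There were 3 libraries labelled KO and 3 labelled WT, and each replicate number joined 1 KO and 1 WT littermate, called a pair here. Each animal carried its genotype in every cell, so the genotype was not restricted to B cells.

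Receptors of this family have no enzymatic activity of their own. Ligand-bound receptors recruit TRAF adaptors or, for those with a death domain, TRADD and FADD, and so reach NF-κB, MAP kinases or caspase-8. BAFF binds the BAFF receptor, TACI and BCMA, while APRIL binds TACI and BCMA only. Resting mature B cells depend on the BAFF receptor, TACI is known as a receptor of activated and innate-like B cells that can restrain them, and BCMA is typical of plasma cells. CD40 receives T cell help, CD27 is a memory and plasma cell receptor in humans that also sits on T cells, and Fas starts apoptosis in activated B cells.

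**Figure D1:**
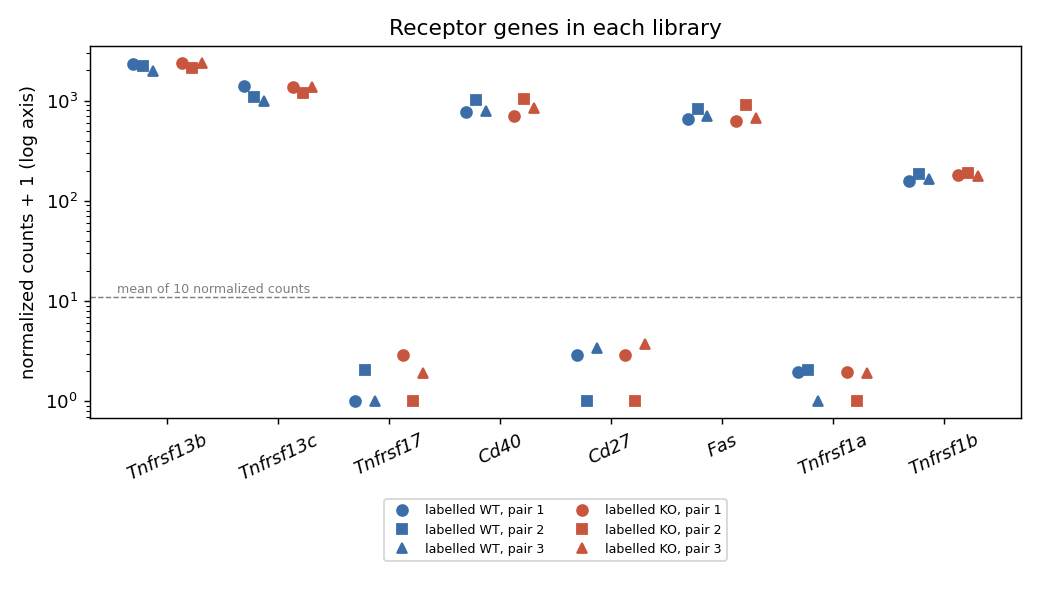
Normalized counts plus 1 on a log axis for the 8 receptor genes, with 1 point per library (blue, labelled WT; red, labelled KO; the marker gives the pair). The points of *Tnfrsf13b*, *Tnfrsf13c*, *Cd40*, *Fas* and *Tnfrsf1b* lie between 157 and 2380 normalized counts, while *Tnfrsf17*, *Cd27* and *Tnfrsf1a* stay below the dashed line at a mean of 10.

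The activated B cells divided these receptors into 5 with clear transcript and 3 with almost none. *Tnfrsf13b*, *Tnfrsf13c*, *Fas*, *Cd40* and *Tnfrsf1b* averaged 10 normalized counts or more and were tested, whereas *Tnfrsf17*, *Cd27* and *Tnfrsf1a* had between 0 and 3 fragments in each library. No receptor gene differed between the genotypes at an adjusted p-value under 0.05. In the limma fit with the pair as a block, 0 of the 5 tested receptors and 0 of all 12322 tested genes passed (0%), and the smallest adjusted p over all genes was 0.653. At an unadjusted p under 0.05 the fit gave 579 of all genes (4.7%) and 0 of the 5 receptors. DESeq2 on the recovered fragment counts called 24 of the 8413 genes to which it gave an adjusted p (0.285%), and edgeR called 0 genes with 568 at an unadjusted p under 0.05. None of those 24 genes was one of the 8 receptors.

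Depth was 5393558 to 6793520 fragments on genes per library, and 3 fragments, the upper limit that a count of 0 allows, were worth 2.72 to 3.61 normalized counts. Such limits cover counting error only. *Tent5c* itself was not lower in the libraries labelled KO: the WT libraries of pairs 1, 2 and 3 had 1255, 767 and 1584 normalized counts and the KO libraries 1993, 993 and 1170 (log2 fold change 0.20, SE 0.19, limma adjusted p 0.970). Which part of the gene the KO allele lacks was not given in the sources used here, so its transcript level could not check the labels, and directions are stated for the libraries as labelled. All 10 mature B cell genes listed were expressed, among them *Cd79b*, a chain of the B cell receptor complex, at 5630 to 6634 and *Ms4a1* (CD20) at 9152 to 12045 normalized counts. *Sdc1*, which encodes the plasma cell surface protein CD138, had 35.5 to 72.2. In bulk RNA, fewer cells of a type and less RNA per cell cannot be told apart.

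The windows just upstream of the 3 BAFF and APRIL receptor genes are shown because these genes lay at opposite ends of the range of levels. The sequences are the 250 bases before the RefSeq start (GRCm38.p6), 5′ to 3′ on the strand of the gene, and capitals mark matches to the motifs searched. *Tnfrsf13b* lies on the plus strand (chr11:61126505-61126754), *Tnfrsf13c* on the minus strand (chr15:82224381-82224630) and *Tnfrsf17* on the plus strand (chr16:11313559-11313808).
Tnfrsf13b: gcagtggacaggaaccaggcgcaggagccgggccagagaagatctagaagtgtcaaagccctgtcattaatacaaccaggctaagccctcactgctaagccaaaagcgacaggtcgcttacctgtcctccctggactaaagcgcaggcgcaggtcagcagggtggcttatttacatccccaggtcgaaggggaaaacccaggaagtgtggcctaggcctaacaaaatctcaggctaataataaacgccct
Tnfrsf13c: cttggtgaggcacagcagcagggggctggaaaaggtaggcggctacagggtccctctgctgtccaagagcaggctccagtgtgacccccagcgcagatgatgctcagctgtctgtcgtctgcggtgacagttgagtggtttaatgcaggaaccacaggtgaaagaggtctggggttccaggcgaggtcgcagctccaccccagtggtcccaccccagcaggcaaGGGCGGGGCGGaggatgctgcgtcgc
Tnfrsf17: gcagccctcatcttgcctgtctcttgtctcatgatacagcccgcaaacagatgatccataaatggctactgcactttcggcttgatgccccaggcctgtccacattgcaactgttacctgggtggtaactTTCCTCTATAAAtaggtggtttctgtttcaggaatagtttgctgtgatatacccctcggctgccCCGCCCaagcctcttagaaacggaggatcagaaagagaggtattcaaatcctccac
The promoter element bound by TBP was searched as TATAAA. The core site of the ETS factor PU.1 was searched as GAGGAA, the site of Sp1 as GGGCGG, and the NF-κB motif by its consensus, each on both strands. The *Tnfrsf17* window held 1 TATAAA, 1 GAGGAA and 1 GGGCGG, the last 2 read on the opposite strand. In the *Tnfrsf13c* window the capitals are 2 GGGCGG matches that share a base, and the *Tnfrsf13b* window held none of the motifs. Of 27025 promoter windows of this length, 13.0% had TATAAA, 23.1% GAGGAA, 32.9% GGGCGG and 7.01% the NF-κB motif. The NF-κB motif had no match in the windows of the 7 receptor genes in the promoter table, which has no entry for *Cd40*. CpG dinucleotides numbered 8 in the *Tnfrsf13b*, 10 in the *Tnfrsf13c* and 5 in the *Tnfrsf17* window, against a median of 6 over all windows.

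*Tnfrsf13b*, on chromosome 11 from 61126755 to 61149372 (GRCm38), was the receptor with the highest level. The WT libraries of pairs 1, 2 and 3 had 2329, 2189 and 1964 normalized counts, and the KO libraries had 2359, 2138 and 2380. The groups overlapped, and the lowest of the 6 values was that of the WT library of pair 3. The log2 fold change of KO against WT was 0.09 (SE 0.08, 95% interval -0.10 to 0.27, limma adjusted p 0.970). Pair by pair it was 0.02, -0.03 and 0.28, so that a difference of more than a few percent was seen in pair 3 only.

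*Tnfrsf13c*, on chromosome 15 from 82221743 to 82224369 (GRCm38), had the largest estimated difference of the 5 tested receptors. The WT libraries had 1386, 1085 and 982 normalized counts in pairs 1, 2 and 3, and the KO libraries had 1377, 1191 and 1369. The WT library of pair 3 was again the lowest, and the WT library of pair 1 was the highest, so the groups overlapped. The log2 fold change was 0.20 (SE 0.10, 95% interval -0.04 to 0.44), or 1.15-fold with an interval of 0.974 to 1.36. This did not pass the threshold (limma unadjusted p 0.0863, adjusted p 0.970), and the pairs gave -0.01, 0.13 and 0.48. Without pair 1 the estimate was 0.31 (adjusted p 0.417), and without pair 3 it was 0.06.

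*Tnfrsf17*, on chromosome 16 from 11313812 to 11320074 (GRCm38), was at the floor of detection. The WT libraries of pairs 1, 2 and 3 had 0, 1 and 0 fragments, and the KO libraries had 2, 0 and 1. Since both groups were at or under 3 fragments in every library, no fold change is given. Of the fragments that fell on *Tnfrsf17* or *Tnfrsf13c*, 4 of 7542 were from *Tnfrsf17*, a share of 0.0530% (Clopper-Pearson 95% interval 0.0145 to 0.136%). The share was 1 of 3323 in the WT libraries and 3 of 4219 in the KO libraries. Of the 10 plasma cell genes listed, *Irf4* (1828 to 3664 normalized counts), *Xbp1* (3215 to 6743), *Jchain* (2171 to 8096), *Slamf7* (1173 to 1444) and *Prdm1* (206 to 565) had clear transcript in these libraries. The other 5 were low, with *Sdc1* at 35.5 to 72.2, *Cd28* at 12.3 to 34.9, *Tigit* at 4.82 to 15.1, *Ly6c2* at 1.91 to 10.4 and *Ly6c1* at 0 in all 6. No exon of *Tnfrsf17* overlapped that of another gene on its strand.

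*Cd40*, on chromosome 2 from 165055627 to 165072948 (GRCm38), followed the pair and not the genotype. The WT libraries had 773, 1017 and 789 normalized counts in pairs 1, 2 and 3, and the KO libraries had 704, 1038 and 844. Both libraries of pair 2 were above the other 4. The log2 fold change between genotypes was -0.002 (SE 0.07, 95% interval -0.18 to 0.17, limma adjusted p 0.998), which allows a KO level of 0.886 to 1.13 times that in WT. The pairs gave -0.13, 0.03 and 0.10.

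*Cd27*, on chromosome 6 from 125232622 to 125237010 (GRCm38), had 2, 0 and 2 fragments in the WT libraries and 2, 0 and 3 in the KO libraries. It was therefore not tested, and no fold change is given. Its exons share 129 bases with the microRNA gene *Mir8113* on the same strand, and featureCounts by default leaves out fragments that fall in both. *Cd70*, which encodes the ligand of CD27, was expressed in the same cultures at 24.1 to 59.5 normalized counts.

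*Fas*, on chromosome 19 from 34290666 to 34327772 (GRCm38), had 657, 825 and 704 normalized counts in the WT libraries of pairs 1, 2 and 3 and 622, 909 and 672 in the KO libraries. As for *Cd40*, both libraries of pair 2 were the highest, and the genotypes overlapped. The log2 fold change was -0.002 (SE 0.07, 95% interval -0.18 to 0.18, limma adjusted p 0.997), with -0.08, 0.14 and -0.07 in the pairs.

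The TNF receptors were expressed unequally. *Tnfrsf1b*, on chromosome 4 from 145213463 to 145246870 (GRCm38), encodes TNFR2, which has no death domain, and had 157, 184 and 166 normalized counts in the WT libraries and 179, 190 and 174 in the KO libraries. It was the 1 receptor of the 5 that was higher in KO than in WT in pairs 1, 2 and 3, by 0.19, 0.04 and 0.07 on the log2 scale, although the groups overlapped. Over all tested genes, 11.7% were higher in KO in all 3 pairs and 13.1% were lower, and 6.83% had groups that did not overlap. None of the 5 receptors was lower in all 3 pairs, and none had groups that did not overlap. The *Tnfrsf1b* estimate was 0.10 (SE 0.10, 95% interval -0.14 to 0.34, limma adjusted p 0.970). *Tnfrsf1a*, on chromosome 6 from 125349362 to 125362484 (GRCm38), encodes TNFR1, the TNF receptor with a death domain, and had 1, 1 and 0 fragments in the WT libraries and 1, 0 and 1 in the KO libraries.

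**Figure D2:**
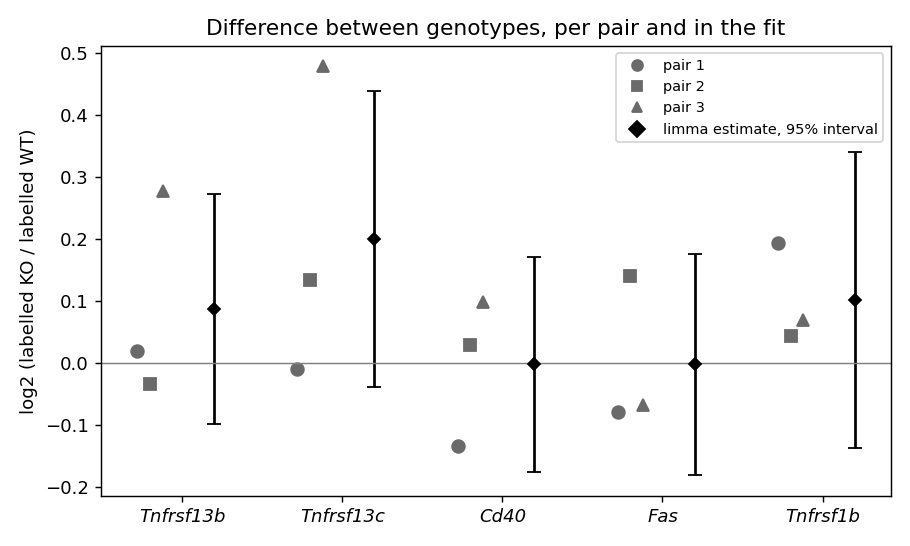
Log2 ratio of the library labelled KO to that labelled WT for the 5 tested receptors, with 1 grey marker per pair and, in black, the limma estimate with its 95% interval. All 5 intervals include 0, and the highest marker is *Tnfrsf13c* in pair 3 at 0.48.

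Levels of different genes were compared as fragments per kilobase of exon scaled to library depth (FPKM), averaged over the 6 libraries. On this scale *Tnfrsf13b* was at 125, *Tnfrsf13c* at 95.5, *Fas* at 56.2, *Cd40* at 40.1 and *Tnfrsf1b* at 7.27. The ranges of *Tnfrsf13b* (107 to 136) and *Tnfrsf13c* (73.9 to 108) met at their ends, although within a library *Tnfrsf13b* was 1.21 to 1.46 times *Tnfrsf13c* in all 6. *Fas* (48.1 to 70.5) lay below *Tnfrsf13c* without overlap and met *Cd40* (32.9 to 48.7), which within a library was 0.678 to 0.761 times *Fas*. *Tnfrsf1b* (6.52 to 7.94) was apart from both. *Tnfrsf17* at 0.125, *Cd27* at 0.101 and *Tnfrsf1a* at 0.0394 rested on 4, 9 and 4 fragments in all, and their order cannot be told. Among the genes tested, whose median was 7.13, *Tnfrsf13b* stood at percentile 96.2, *Tnfrsf13c* at 95.4, *Fas* at 92.1, *Cd40* at 89.2 and *Tnfrsf1b* at 50.6.

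Set against the 20 other genes of the TNF receptor family, the described receptors held the first 3 places, the fifth and the ninth. The 5 tested receptors made up 74.5% of the summed level per kilobase of the 28 family genes. Between *Fas* and *Cd40* stood *Tnfrsf8* (CD30) at 48.8, and below *Cd40* stood *Tnfrsf14* (HVEM, the receptor of LIGHT and BTLA) at 27.3. Those genes, and *Irf4*, *Prdm1*, *Pax5*, *Ms4a1*, *Cd79b* and *Sdc1*, were named after their values were seen. *Tnfrsf11b* and *Edar* were listed at 0 in all 6 libraries. Of the 20 other family genes, 10 were tested and 0 passed the adjusted threshold, with a median log2 fold change of -0.03 against 0.000674 over all genes. Their largest estimates were -0.24 for *Tnfrsf4* (OX40), -0.14 for *Tnfrsf22*, a decoy receptor for TRAIL, and 0.12 for *Tnfrsf10b*, a death receptor for TRAIL. The median of the 5 receptors was 0.09.

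**Figure D3:**
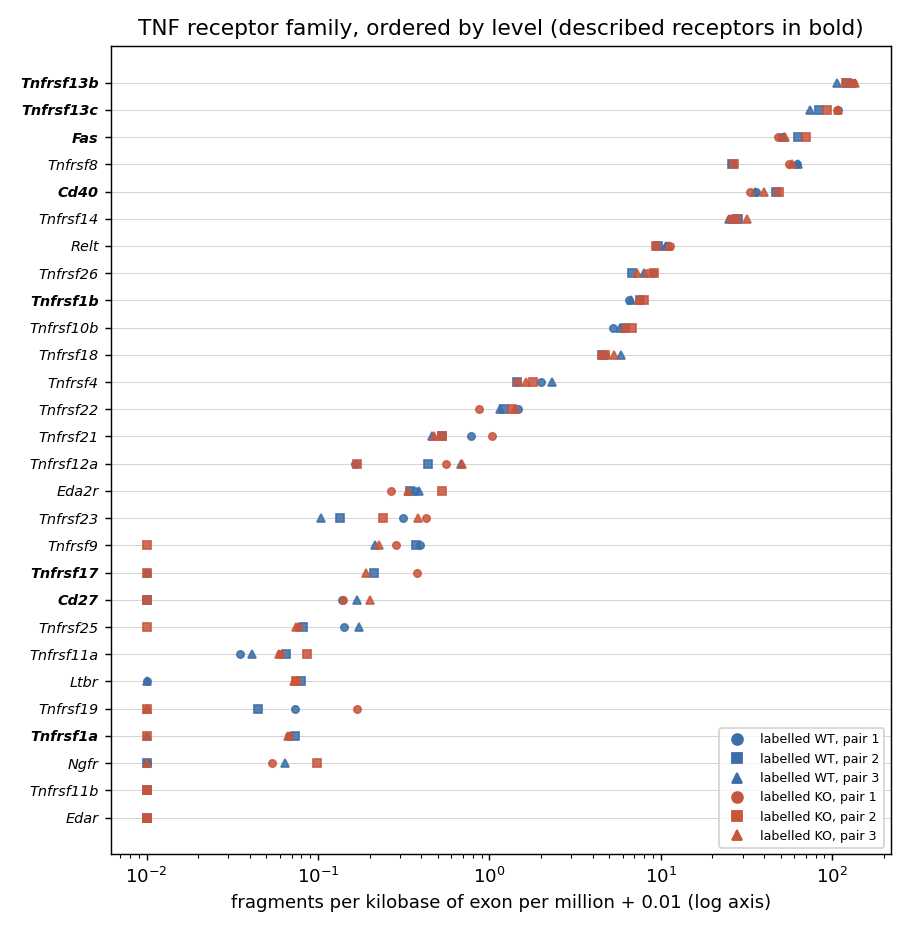
Level of the 28 TNF receptor family genes in each library, as FPKM plus 0.01 on a log axis, ordered by the mean of the 6 libraries, with the 8 described receptors in bold. *Tnfrsf13b* and *Tnfrsf13c* lead the family, and *Tnfrsf17*, *Cd27* and *Tnfrsf1a* lie in its lower part, where points at 0.01 are libraries with 0 fragments.

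The transcripts of most ligands of these receptors were at or near 0 in the cultures. *Tnfsf13b*, which encodes BAFF, had 0 to 2.09 normalized counts, *Tnfsf13* (APRIL) had 0 to 0.944, and *Cd40lg* was at 0 in all 6 libraries, which allows up to 2.72 to 3.61 normalized counts per library. *Tnfsf13* shares 983 of its 1637 exon bases with the fusion gene *Tnfsfm13* on the same strand, where the same default applies. *Fasl* had 0 to 0.953 in 5 libraries and 7.22 in the WT library of pair 3.

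*Tnf* and *Lta*, whose products bind both TNF receptors, were expressed. *Tnf* had 245, 267 and 196 normalized counts in the WT libraries of pairs 1, 2 and 3 and 212, 291 and 235 in the KO libraries (log2 fold change 0.06, SE 0.11, limma adjusted p 0.976). *Lta*, which encodes lymphotoxin alpha, had 82.1 to 101 over the 6 libraries (log2 fold change -0.04, SE 0.13). Of both TNF receptor genes, *Tnfrsf1b* was the one with transcript above the floor. For *Cd70* the estimate was 0.33 (SE 0.23) and the pairs gave -0.14, 0.33 and 0.80, with the lowest value in the WT library of pair 3. In all, 7 of 17 TNF family ligand genes were tested and 0 passed. The largest estimates beside that of *Cd70* were 0.39 for *Tnfsf9* (4-1BB ligand) and 0.37 for *Tnfsf4* (OX40 ligand).

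Signalling genes downstream of the receptors were expressed in every library. All 22 genes of the list of adaptors and death signalling were tested, 0 passed the adjusted threshold, and their median log2 fold change was 0.004. In all 3 pairs, 5 of the 22 were higher in KO (11.7% of all tested genes) and 5 lower (13.1%). The groups did not overlap in 3 of the 22 (6.83% of all tested genes), namely *Fadd*, *Traf2* and *Birc3*. *Traf4*, a TRAF family adaptor, was the 1 gene with an unadjusted limma p under 0.05: it had 131, 186 and 146 normalized counts in the WT libraries and 203, 212 and 170 in the KO libraries. Its log2 fold change was 0.34 (SE 0.12, limma unadjusted p 0.0307, adjusted p 0.970), and the groups overlapped. *Fadd*, the adaptor that joins Fas to caspase-8, had 41.6 to 46.0 normalized counts in WT and 50.5 to 52.7 in KO, and these did not overlap (log2 fold change 0.22, SE 0.17, adjusted p 0.970). *Traf5*, an adaptor of CD40 and CD27, had an estimate of -0.21 (SE 0.18).

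The noncanonical NF-κB route, in which the BAFF receptor and CD40 release the kinase NIK from degradation by TRAF2, TRAF3 and cIAP proteins, was likewise expressed. All 8 genes of that list were tested and 0 passed, with a median log2 fold change of 0.09. *Traf2*, *Traf3*, *Birc2* and *Birc3* were also in the list of adaptors and death signalling. In all 3 pairs, 3 of the 8 were higher in KO (11.7% of all tested genes) and 2 lower (13.1%). The groups did not overlap in 3 of the 8 (6.83% of all tested genes), namely *Traf2*, *Relb* and *Birc3*. *Traf2* had 345 to 378 normalized counts in WT and 317 to 335 in KO (log2 fold change -0.16, SE 0.08, limma adjusted p 0.970). *Relb* had 519 to 550 in WT and 562 to 574 in KO (log2 fold change 0.08, SE 0.07). *Birc3* had 1787 to 1857 in WT and 1694 to 1786 in KO (log2 fold change -0.07, SE 0.06). *Nfkb2*, which encodes the p100 precursor, had an estimate of 0.14 (SE 0.09), and *Birc2* (cIAP1) had 0.12 (SE 0.07).

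Proteases that cut these receptors from the surface were a further list, since TACI is cut by ADAM10 and BCMA by gamma-secretase. Of its 9 genes 8 were tested, 0 passed, and the median log2 fold change was -0.08, with 4 of the 8 lower in KO in all 3 pairs (13.1% of all tested genes) and 0 higher (11.7%). In 3 of the 8 the groups did not overlap (6.83% of all tested genes). *Aph1a*, a gamma-secretase subunit, had 175, 177 and 175 normalized counts in the WT libraries and 151, 157 and 133 in the KO libraries (log2 fold change -0.26, SE 0.11, limma adjusted p 0.970). *Psenen*, another subunit, had an estimate of -0.16 (SE 0.11) and *Aph1b* one of -0.49 (SE 0.66).

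The span of the pair means, from the lowest to the highest, was larger than the genotype difference for all 5 tested receptors. The pair means of *Cd40* spanned 0.48 on the log2 scale and those of *Fas* 0.44, at percentiles 79.7 and 76.7 of this span among all tested genes. For *Tnfrsf13c* the span was 0.28 (percentile 59.2), for *Tnfrsf1b* 0.16 (percentile 31.9) and for *Tnfrsf13b* 0.12 (percentile 20.7). A span above the size of the genotype difference was common, being found for 82.0% of all tested genes, so it does not set these receptors apart. *Tnfrsf8* ran the other way to *Cd40* and *Fas*: it had 572 and 582 normalized counts in the WT and KO libraries of pair 2 and 1217 to 1412 in the other 4. *Irf4* and *Prdm1*, regulators of plasma cell differentiation, were also lowest in both libraries of pair 2, with 1828 to 1876 and 206 to 207 normalized counts. The part of cell composition in this pattern was not tested.

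In pair 3 the WT library lay below the mean of the 6 libraries by 0.18 on the log2 scale for *Tnfrsf13b* and 0.31 for *Tnfrsf13c*, and the KO library lay above it by 0.10 and 0.16. The WT library of pair 3 stood apart in other B cell genes too. It was the lowest of the 6 libraries for *Pax5* (1334 against 1671 to 1975 normalized counts in the others), *Ebf1* (368 against 536 to 618), *Bach2* (91.5 against 129 to 193) and *Ms4a1*. *Jchain*, which encodes the chain that joins IgM and IgA polymers, was highest there at 8096 normalized counts, against 2171 to 4744. Over the whole lists, the 10 mature B cell genes summed to 31656 in that library and 33464 to 38222 in the others, and the 10 plasma cell genes to 19864 against 9102 to 17098. Without *Jchain* the plasma cell sum was 11768 in that library and 12353 in the KO library of pair 1, which had the highest *Irf4* (3664), *Xbp1* (6743) and *Prdm1* (565). By genotype, the full sum was 9102 to 19864 in WT and 9478 to 17098 in KO. Relative to *Pax5* in the same library, a comparison chosen after the values were seen, the pair 3 log2 ratio was -0.09 for *Tnfrsf13c* and -0.29 for *Tnfrsf13b*. Relative to *Cd79b* it was 0.32 and 0.12.

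**Figure D4:**
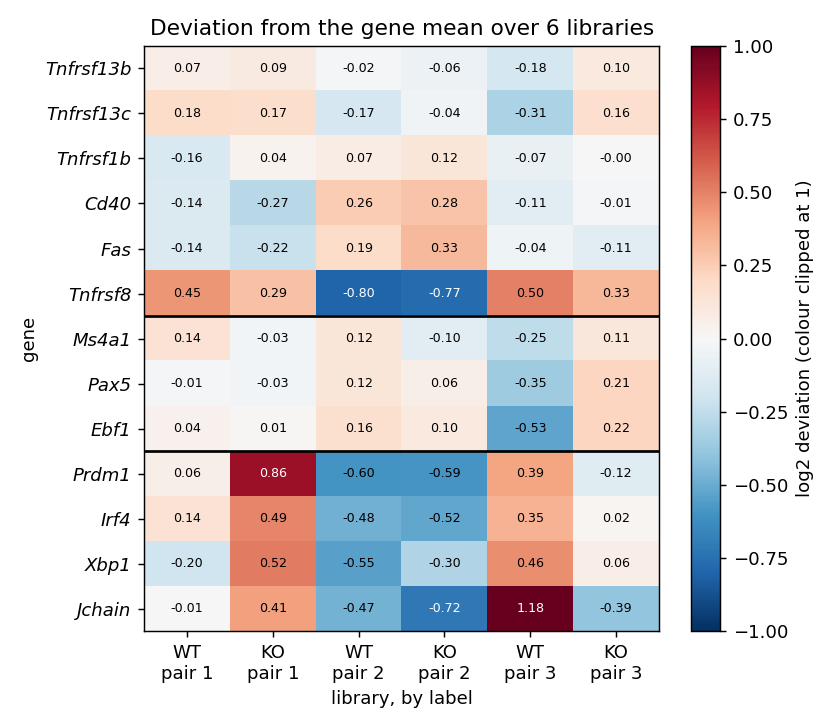
Log2 deviation of each library from the mean of the gene over the 6 libraries, for 6 TNF receptor genes (top), 3 mature B cell genes (middle) and 4 plasma cell genes (bottom), with libraries in columns by pair. *Cd40* and *Fas* are above their mean and *Tnfrsf8* below it in both libraries of pair 2, and the WT library of pair 3 is lowest for *Tnfrsf13b*, *Tnfrsf13c* and the 3 B cell genes and highest for *Jchain*.

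Of the mature B cell genes themselves, 10 of 10 were tested and 0 passed the adjusted threshold (median log2 fold change 0.14). *Cr2*, the complement receptor CD21, had 66.1, 38.7 and 25.3 normalized counts in the WT libraries and 96.3, 64.8 and 59.9 in the KO libraries (log2 fold change 0.83, SE 0.20, limma unadjusted p 0.00485, adjusted p 0.737). *Cd79a*, which encodes the partner chain of CD79B, had 1405 to 1611 in WT and 1219 to 1398 in KO (log2 fold change -0.21, SE 0.08, unadjusted p 0.0387, adjusted p 0.970). *Bach2*, a repressor of plasma cell differentiation, had an estimate of 0.32 (SE 0.26) and *Ebf1*, a B lineage factor, one of 0.22 (SE 0.16). Of the plasma cell genes 8 of 10 were tested and 0 passed (median 0.009). Their largest estimates were -0.47 for *Jchain* (SE 0.33), 0.29 for *Tigit*, an inhibitory receptor (SE 0.50), and 0.19 for *Xbp1*, the transcription factor of the secretory programme (SE 0.19).

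Markers of other cell types that carry some of these receptors or ligands were low. The 10 T cell genes, of which 0 reached the mean of 10, summed to 14.6 to 101 normalized counts in the WT libraries and 19.1 to 51.8 in the KO libraries, with the highest sum in the WT library of pair 3, and *Cd3e* had 0 to 4.82. The 10 myeloid genes, 3 of them tested, summed to 117 to 166 in WT and 67.7 to 158 in KO, and *S100a8*, *S100a9* and *Fcgr1* were at 0 in all libraries. Their estimates were -0.54 for *Lyz2* (SE 0.69), -0.50 for *Cd68* (SE 0.21) and -0.38 for *Adgre1* (SE 0.32). The 6 NK cell genes, 2 of them tested, summed to 20.9 to 71.0 in WT and 26.4 to 73.5 in KO, with estimates of 0.67 for *Gzma* (SE 0.51) and 0.09 for *Prf1* (SE 0.40). The 7 erythroid genes, 0 of them tested, summed to 0 to 5.23 in WT and 2.72 to 5.72 in KO, with *Hba-a1*, *Hba-a2* and *Hbb-bs* at 0 in all libraries. The part of these cells in the receptor values was not tested.

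For each tested receptor, the genes whose log2 values ran most nearly in parallel over the 6 libraries were sought among the 9587 genes that averaged 50 normalized counts or more. Such likeness, over 6 libraries that share pairs and culture, is a description. *Tnfrsf13b* was most like *Zfp235* (Pearson's r 0.993), *Rps27* (0.989) and *9930111J21Rik2* (0.988). *Tnfrsf13c* was most like *Usp25* (0.990), *2310015A10Rik* (0.984) and *Cxcr5*, the receptor that guides B cells into follicles (0.984). The *Cxcr5* values were 1231, 912 and 845 normalized counts in the WT libraries of pairs 1, 2 and 3 and 1184, 987 and 1130 in the KO libraries, again lowest in the WT library of pair 3. *Cd40* was most like *Gspt1* (0.996), *Rrm1* (0.991) and *Pecam1* (0.991), and *Fas* most like *Ywhaq*, *Pisd-ps2* and *Pbrm1* (each 0.997). *Gspt1* showed the pair 2 pattern with 1063 and 1072 normalized counts in that pair and 663 to 811 in the other 4 libraries. *Tnfrsf1b* was most like *Birc5* (0.981), *Tarbp1* (0.980) and *Bola3* (0.967). Between 87 and 276 genes had an r above 0.9 with a given receptor.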

How the data were processed

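RNA from 6 cultures of activated B cells was sequenced as stranded, rRNA-depleted libraries with 75-nt paired-end reads. The authors trimmed reads with cutadapt 1.18 and aligned them with STAR 2.6.1a to GRCm38 (mm10 in the labels). With featureCounts (Subread 1.6.3) they counted fragments on the exons of the Gencode vM19 annotation. Fragments needed a mapping quality of 10 or more and both ends mapped, and chimeric ones were left out. Each library was then scaled by its DESeq2 size factor. The table deposited by the authors thus holds normalized counts (a signal in units of scaled fragments) with no filter. This scaling hides any shift common to most transcripts. Fragments were recovered from the steps of each library: 100% of values above 0 were whole multiples within 0.001.

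Symbols, positions and exon lengths came from Gencode vM21 (54409 of 54446 identifiers, 37 without a match), and upstream sequences from RefSeq, where 7 of the 8 genes matched. The test was limma 3.58.1 (R 4.3.3; lmFit, eBayes with trend) on log2(normalized count + 1), two-sided, over the 12322 genes averaging 10 or more, with the pair as a block, Benjamini-Hochberg adjustment over all of them and a threshold of 0.05. Fold changes are on that scale and understate changes of low genes. DESeq2 1.42.0 and edgeR 4.0.16 were alternatives on recovered fragments. The steps were also run on simulated counts that held no difference between pairs, so that run cannot show how they behave where pairs differ.

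The methods and labels pair littermates by number. Deviations of the 2 libraries of a pair from their group means correlated over genes with r 0.328, 0.685 and 0.170 in pairs 1, 2 and 3, so only weakly in pair 3. Libraries were not duplicates, with a chi-square per gene of 4.82 to 24.3. By this measure the KO library of pair 3 was nearer to the WT library of pair 1 (11.9) than to its own WT partner (17.8).

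The members and lists were chosen with earlier results of these data known. Named were all 8 receptors, their ligands with a mean of at least 10, in each list the genes with an unadjusted p under 0.05 and the 3 largest changes, and the 3 genes most like each receptor; other names were chosen after their values were seen. Alternatives were the pseudocount (5), the filter (none, or 50), TMM and quantile scaling, no block, other tools, transcript length and leaving out each pair. Values of some listed genes are not reported here.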

Additional observations from a re-analysis of the deposited data

How the results depend on the processing

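No receptor passed the adjusted threshold under any of the 11 alternatives to the fit, and 47 of 55 estimates kept their direction. The 8 that turned were all near 0: *Cd40* was at 0.0082 with TMM, 0.018 with quantile scaling and 0.064 without replicate 1, *Fas* at 0.0079, 0.019 and 0.036 in the same order and 0.030 without replicate 3, and *Tnfrsf13b* at -0.0077 without replicate 3. When a pair was left out the estimates were -0.0077 to 0.15 for *Tnfrsf13b*, -0.052 to 0.064 for *Cd40*, -0.074 to 0.036 for *Fas* and 0.056 (without replicate 1) to 0.13 for *Tnfrsf1b*. The *Tnfrsf13c* estimate was 0.06 to 0.31 when a pair was left out and 0.20 to 0.21 otherwise, with adjusted p-values of 0.417 to 1. Without the replicate block, 0 genes passed, as with it, and the block changed no call. DESeq2 called 23 genes lower and 1 higher in KO over all genes, against 0 and 0 in limma, and leaving out a pair gave 0 to 168 lower and 0 to 3 higher, the most without replicate 1. The number of receptors higher in KO in all pairs was 2 with quantile scaling and 1 to 3 when a pair was left out (3 without replicate 1, 2 without replicate 2), and that of receptors lower in all pairs was 0 to 1 (1 without replicate 2). With a pair left out, only the pairs that remained had to go the same way, which is easier to meet. Shares over all genes were not computed under these settings, so these counts are not a result about the receptors. Relative to *Pax5*, an alternative added after seeing the data, the mean log2 ratio was -0.074 for *Tnfrsf13b*, -0.059 for *Tnfrsf1b*, 0.039 for *Tnfrsf13c* (0.20 as reported) and -0.16 for both *Cd40* and *Fas*, while relative to *Cd79b* no estimate changed sign. The causes of these shifts were not tested. Lengths of the longest transcript exchanged *Tnfrsf17* and *Cd27* in the order of levels and left the other 6 in place. The ratio of *Tnfrsf17* to *Tnfrsf13c* could not be given per library, since 3 libraries had 0 *Tnfrsf17* fragments, and the pooled share was 0.0434 to 0.0575% when a pair was left out. Depth limits *Tnfrsf17*, *Cd27* and *Tnfrsf1a*, for which a difference between genotypes was not detectable.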
